A study of Homo sapiens with 9 samples.

Results

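Clone 37 is a line of HEK293T cells that expresses a pair of integrated luciferase reporters at a high level, and it was compared with the parental HEK293T cells from which it was made. The comparison used the transcript-strand gene counts of the 3 clone 37 and 3 parental libraries, all read at 75 bp, which are 6 of the 9 libraries of the series. HEK293T is an established line of human embryonic kidney origin that carries the SV40 large T antigen. Parental cells carried no reporter. In clone 37 the piggyBac transposon had placed ATG-(CAG)60-Myc-NLuc, a NanoLuc reporter behind 60 CAG units, and ATG-(CAG)0-Myc-FLuc, a firefly luciferase reporter with 0 units, in the genome. CAG is the repeat expanded in several inherited ataxias and in Huntington disease. Both lines grew in DMEM with fetal bovine serum, penicillin and streptomycin, and RNA was depleted of ribosomal RNA before library preparation. Clone 37 descends from 1 sorted cell, so reporter expression, insertion sites and the history of that cell cannot be told apart in any value below.

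The question was which pathways, gene families and cell functions differed between the lines across genes, and how far such differences followed stretches of chromosome. Several of the systems described below are linked in textbook biology. Cells that lack amino acids or accumulate misfolded protein phosphorylate the initiation factor eIF2, which lowers general translation and favours translation of the transcription factor ATF4. ATF4 then raises genes for serine synthesis, amino acid uptake and tRNA charging. Misfolded protein in the endoplasmic reticulum (ER) induces ER chaperones, and misfolded protein in the cytosol induces heat shock proteins through HSF1.

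Gene counts summed to 10334090 to 13902872 per library. Levels are given in CPM, counts scaled to the normalised library size, in the order of replicates 1, 2 and 3. Parental replicate 2 stood apart: its counts differed from those of the other 2 parental libraries by a mean chi-square of 13 and 13.2 per gene, against 1.89 to 2.14 for the other pairs of replicates. Where a list's count or median given below moved by over 1.5 times without it, both values are given. The 6 tested markers of embryonic kidney lineage were present at a summed 299 to 325 CPM in parental cells and 231 to 249 CPM in clone 37. Of 8 fibroblast markers, 1 was at 0 counts in all 6 libraries, and the list summed to 52.9 to 55.6 CPM against 21.8 to 22.3 CPM in clone 37. Of 7 epithelial markers, 4 were at 0, and the list summed to 13.8 to 15.9 CPM against 3.68 to 4.7 CPM. Markers of blood cells, endothelium and hepatocytes summed to at most 2.92 CPM in any library, with 2 of 9, 2 of 7 and 3 of 6 at 0 throughout. Nothing in the labels says that replicates were separate cultures, so p-values measure the spread among these libraries. In such bulk RNA, fewer cells with a transcript and less RNA per cell cannot be told apart.

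A gene was called where edgeR's quasi-likelihood test gave a Benjamini-Hochberg adjusted p under 0.05 over the 16501 genes tested. The lines differed widely, with 54% of tested genes called. Calls were divided evenly: 26.7% of genes were higher in clone 37 and 27.3% lower, and the median log2 fold change of all genes was 0.02 (-0.01 without parental replicate 2). Scaling of the libraries centres the changes near 0, so this balance is not a result about the cells. With each library's trends with GC content and transcript length removed, 4867 genes were higher and 3967 lower. Changes of at least 2-fold were less even, at 557 genes higher (3.38%) and 928 lower (5.62%). List counts below are read against these shares, and a number in parentheses after a gene or a list is a log2 fold change of clone 37 over parental, or its median. The groups did not overlap in CPM for 60.9% of tested genes. Where a gene is said to have risen or fallen most, the comparison is among list members with a mean of at least 5 CPM whose groups did not overlap. Each gene was also tested against its chromosome neighbours, taken as the 50 tested genes on either side of it, whose median log2 fold change was subtracted. By that measure 20.3% of genes were higher than their neighbours and 22.8% lower.

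**Figure D1:**
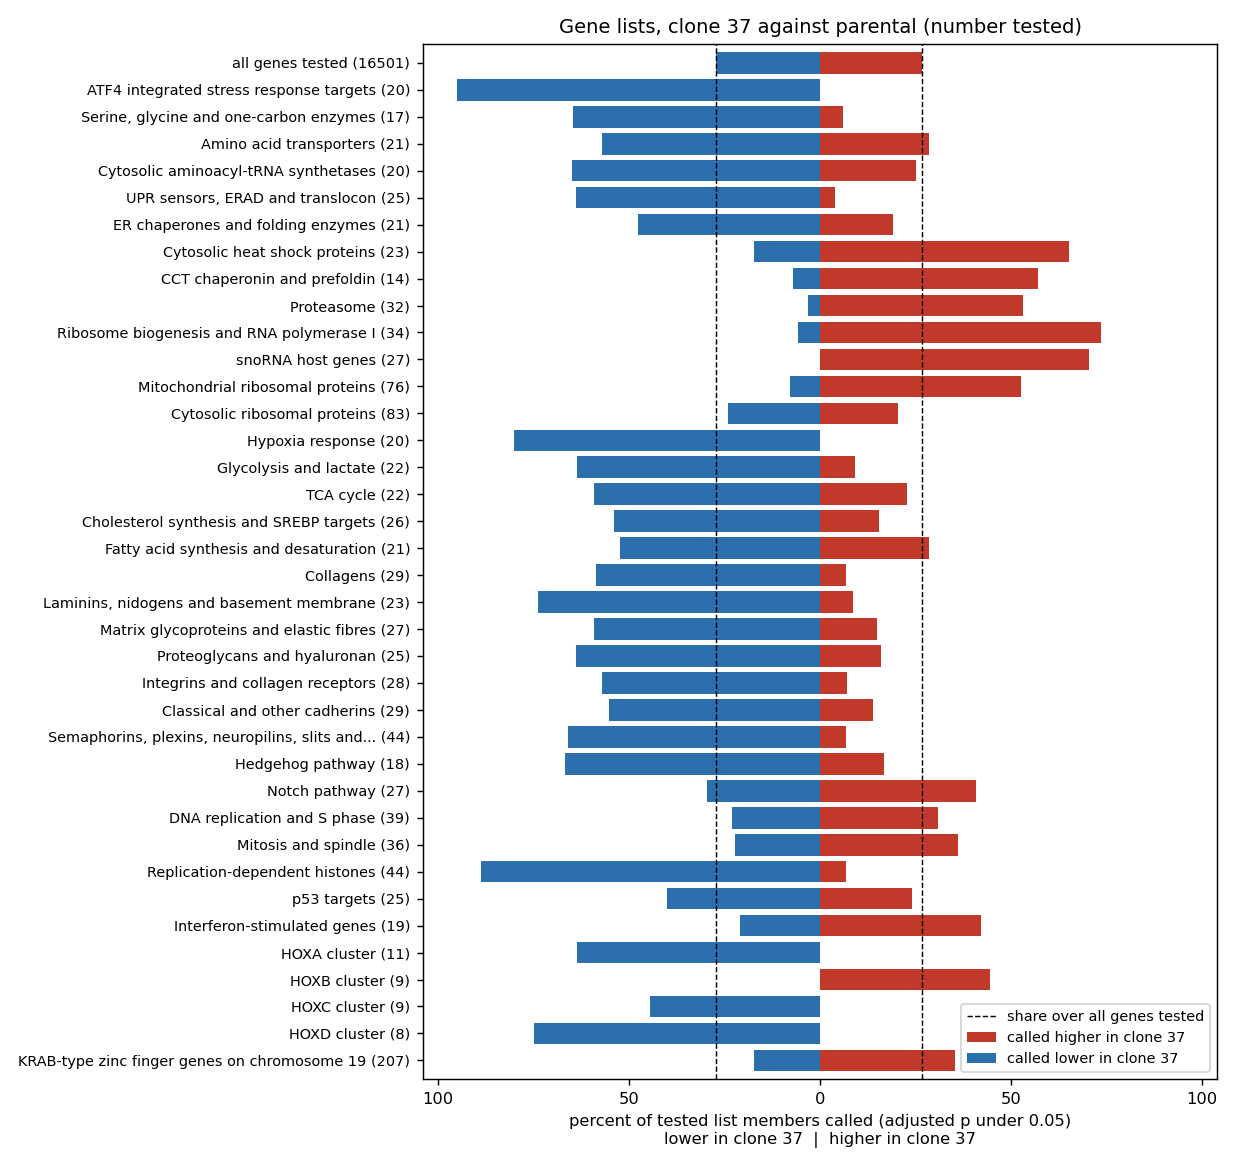
Share of tested genes called higher (right) and lower (left) in clone 37 than in parental cells, in percent, for the gene lists named on the vertical axis. Dashed lines give the shares over all 16501 tested genes, 26.7% higher and 27.3% lower. The ATF4 and hypoxia lists reach far to the left with no gene on the right, and ribosome biogenesis and snoRNA host genes reach far to the right.

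Promoters were read for 3 stress systems because their members moved in different directions. A window of 300 bases (250 before the start and 50 after) was taken from RefSeq on GRCh38.p14 and searched on both strands. The ATF4 element, TGATGNAA, was in 3 of the 17 promoters found for the 20 tested ATF4 targets (17.6%), against 3.67% of 27305 promoters. The heat shock element, searched as GAA, TTC and GAA, or TTC, GAA and TTC, with 2 unspecified bases between the units, was in 4 of 21 heat shock protein promoters (19%), against 0.487% of all. The ER stress element, CCAAT and CCACG with 9 unspecified bases between them, was in 6 of 20 ER chaperone promoters (30%), against 0.0806% of all. A match is a run of letters and not a measured binding site. The 250 bases before the start are shown for 7 genes that hold a match there, 5′ to 3′ on the gene's strand, with the matching bases in capitals.
CHAC1, chr15:40953221-40953470, plus strand, ATF4 element: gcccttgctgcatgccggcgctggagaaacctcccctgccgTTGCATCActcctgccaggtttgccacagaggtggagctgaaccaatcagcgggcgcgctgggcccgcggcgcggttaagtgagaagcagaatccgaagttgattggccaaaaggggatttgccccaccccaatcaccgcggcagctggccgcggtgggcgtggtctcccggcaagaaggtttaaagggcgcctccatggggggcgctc
ASNS, chr7:97872409-97872658, minus strand, ATF4 element: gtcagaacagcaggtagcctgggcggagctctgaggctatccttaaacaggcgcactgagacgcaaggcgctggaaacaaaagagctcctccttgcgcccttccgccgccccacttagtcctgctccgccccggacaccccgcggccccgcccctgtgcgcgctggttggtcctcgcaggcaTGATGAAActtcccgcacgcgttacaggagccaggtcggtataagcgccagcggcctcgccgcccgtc
ATF3, chr1:212565157-212565406, plus strand, ATF4 element: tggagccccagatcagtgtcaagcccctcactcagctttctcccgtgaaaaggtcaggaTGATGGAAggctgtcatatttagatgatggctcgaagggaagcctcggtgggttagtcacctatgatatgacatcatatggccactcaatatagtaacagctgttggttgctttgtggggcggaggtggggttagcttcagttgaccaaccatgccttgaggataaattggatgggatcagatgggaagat
HSPA8, chr11:123062137-123062386, minus strand, heat shock element: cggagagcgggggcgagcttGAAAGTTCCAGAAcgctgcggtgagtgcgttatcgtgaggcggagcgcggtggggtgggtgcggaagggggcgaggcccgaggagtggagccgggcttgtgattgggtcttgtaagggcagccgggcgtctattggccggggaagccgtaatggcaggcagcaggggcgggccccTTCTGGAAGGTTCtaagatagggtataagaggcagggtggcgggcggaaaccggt
CHORDC1, chr11:90223050-90223299, minus strand, heat shock element: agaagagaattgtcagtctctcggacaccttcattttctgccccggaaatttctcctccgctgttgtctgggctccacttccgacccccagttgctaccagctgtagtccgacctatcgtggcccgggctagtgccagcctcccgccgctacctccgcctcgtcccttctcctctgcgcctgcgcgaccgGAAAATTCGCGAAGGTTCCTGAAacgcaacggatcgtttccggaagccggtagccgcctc
DNAJB6, chr7:157336754-157337003, plus strand, heat shock element: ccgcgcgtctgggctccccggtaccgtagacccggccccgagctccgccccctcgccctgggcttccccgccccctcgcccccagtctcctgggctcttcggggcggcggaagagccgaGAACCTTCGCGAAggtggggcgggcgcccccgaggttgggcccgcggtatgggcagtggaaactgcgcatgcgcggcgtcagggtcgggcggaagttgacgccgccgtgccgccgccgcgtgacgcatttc
HSPA5, chr9:125241344-125241593, minus strand, ER stress element: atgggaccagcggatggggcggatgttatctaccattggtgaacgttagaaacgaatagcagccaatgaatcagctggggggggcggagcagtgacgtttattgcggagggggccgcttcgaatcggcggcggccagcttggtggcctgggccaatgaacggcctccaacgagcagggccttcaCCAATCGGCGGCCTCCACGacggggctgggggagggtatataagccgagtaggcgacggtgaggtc

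The ATF4 list was the most one-sided of the stress lists. Of its 20 tested targets 19 were lower in clone 37, 10 of them at least 2-fold, and 0 were higher. The median log2 fold change was -0.98, against 0.02 for all genes. Centred on each gene's mean, the list's median log2 level was 0.42, 0.54 and 0.40 in parental replicates 1 to 3 and -0.46, -0.41 and -0.51 in clone 37, so the libraries of the 2 lines did not overlap. The 20 genes lay on 15 chromosomes. Of the 19 lower genes, 12 lay among neighbours whose median change was 0 or above, and 18 of the 20 were lower than their neighbours by the test. ATF5, a related transcription factor, was the target not called (log2 fold change 0.14, adjusted p 0.439).

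ATF4 itself (ENSG00000128272, chromosome 22, 39519695 to 39522685) stood at 607, 717 and 641 CPM in parental replicates 1, 2 and 3 and 449, 422 and 455 CPM in clone 37. Positions are those of GENCODE 29 on GRCh38. All 3 clone 37 libraries were below all 3 parental ones (log2 fold change -0.57, SE 0.07, adjusted p 3.18e-06). CHAC1 (ENSG00000128965, chromosome 15, 40952962 to 40956519), which degrades glutathione, had the largest decrease on the list. It was at 28.2, 36.8 and 31 CPM in parental replicates 1, 2 and 3 and 3.91, 4.47 and 3.97 CPM in clone 37 (log2 fold change -2.96, SE 0.13, adjusted p 7.64e-12). Its ATF4 element lies in the promoter printed above. DDIT4, an inhibitor of mTORC1 signalling, was at 292, 321 and 258 CPM against 52.8, 54.4 and 39.5 CPM, with no overlap (log2 fold change -2.58, SE 0.13, adjusted p 5.55e-07). NUPR1, a small stress-induced nuclear protein, was at 10.9, 14.3 and 11 CPM against 2.09, 2.28 and 2.6 CPM (log2 fold change -2.37). SESN2, a leucine sensor that restrains mTORC1, and DDIT3, the transcription factor CHOP, had log2 fold changes of -1.11 and -1.03.

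The other genes with a printed ATF4 element were chosen for that element after their values were seen. ASNS, asparagine synthetase, was at 25, 13.8 and 20.3 CPM against 8.82, 9.14 and 9.08 CPM (log2 fold change -1.11, SE 0.20, adjusted p 0.000682), with parental libraries more spread than clone 37 libraries and none overlapping. ATF3, a stress-induced repressor, was at 88.5, 92.8 and 67.1 CPM against 37.1, 40.7 and 37.1 CPM (log2 fold change -1.11, SE 0.11, adjusted p 1.04e-05), again with no overlap.

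**Figure D2:**
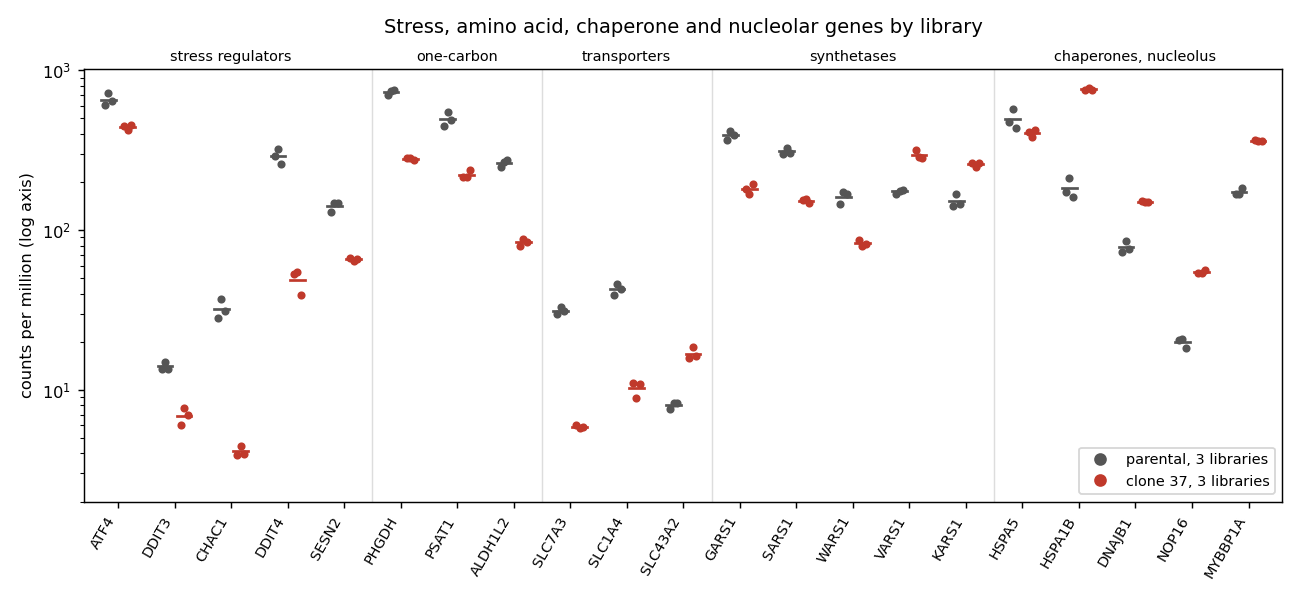
Level in each library, in CPM on a log axis, of stress genes in parental cells and clone 37. Each point is 1 library and each bar the mean of 3. ATF4 targets such as CHAC1 and DDIT4 lie lower in all 3 clone 37 libraries, and heat shock proteins such as HSPA1B lie higher.

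Amino acid supply genes also fell more often than they rose. Among serine, glycine and one-carbon enzymes 11 of 17 were lower and 1 was higher (median -0.27). PHGDH (ENSG00000092621, chromosome 1, 119648411 to 119744226), the first enzyme of serine synthesis, was at 703, 744 and 749 CPM in parental replicates 1, 2 and 3 and 284, 282 and 275 CPM in clone 37 (log2 fold change -1.39, SE 0.06, adjusted p 7.64e-12). PSAT1, the next enzyme of that path, was at 449, 546 and 487 CPM against 216, 215 and 237 CPM (log2 fold change -1.15). ALDH1L2, a mitochondrial folate enzyme, was at 248, 268 and 273 CPM against 80, 88.3 and 84.7 CPM (log2 fold change -1.64). None of these 3 overlapped between the lines. GCSH, a carrier protein of the glycine cleavage system, was the gene that rose, at a log2 fold change of 1.12, and it lies in a stretch of chromosome 16 that was higher as a whole (neighbour median 0.61).

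Of 21 amino acid transporters 12 were lower and 6 higher. SLC7A3, a carrier of arginine and lysine, was at 30, 32.8 and 31.1 CPM against 6, 5.8 and 5.84 CPM (log2 fold change -2.41, adjusted p 5.31e-12). SLC1A4, which carries alanine, serine and cysteine, had a log2 fold change of -2.05, and SLC7A11, the cystine importer, which is also on the ATF4 list, of -0.76. SLC7A5, the large neutral amino acid carrier, changed by -0.25 beside neighbours at 0.67, which put it -0.91 from them (adjusted p 1.74e-08). The call of the first value was lost without clone 37 replicate 2 (-0.21) and with GC and length trends removed (-0.20), an alternative added after seeing the data in which each library's trends with GC content and transcript length were entered as offsets. SLC43A2, another carrier of large neutral amino acids, was higher (1.06).

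Aminoacyl-tRNA synthetases, which load tRNAs, divided into 13 lower and 5 higher of 20 (median -0.32). GARS1 for glycine (-1.11), SARS1 for serine (-1.03) and WARS1 for tryptophan (-0.97) fell most. KARS1 for lysine (0.77), VARS1 for valine (0.76) and RARS1 for arginine (0.56) rose most. KARS1 lies in the higher stretch of chromosome 16 (neighbour median 0.54) and was 0.23 above its neighbours (adjusted p 0.00858).

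Genes of the secretory pathway fell more often than they rose, with smaller sizes. Of 25 sensors and degradation factors of the unfolded protein response 16 were lower and 1 was higher (median -0.31), and 17 and 3 without parental replicate 2. XBP1, the transcription factor made active by IRE1 splicing, had a log2 fold change of -1.06 and HERPUD1, a part of the ER degradation complex, of -0.86. Of 21 ER chaperones 10 were lower and 4 higher, at a median of -0.12. HSPA5 (BiP), the main ER chaperone, whose promoter is printed above, was at 475, 575 and 437 CPM in parental replicates 1, 2 and 3 and 410, 383 and 421 CPM in clone 37 (log2 fold change -0.29, SE 0.09, adjusted p 0.00959). Its groups did not overlap, but replicate 3 of parental cells, the lowest of them, lay close to replicate 3 of clone 37. The call was lost without clone 37 replicate 2 (log2 fold change -0.25) and with GC and length trends removed (-0.23), and the value was -0.18 without parental replicate 2. PDIA4, a disulfide isomerase, fell by 1.16 on the log2 scale but by 0.21 against its neighbours on chromosome 7. TXNDC5, another disulfide isomerase, was higher (0.97).

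Cytosolic folding genes moved the other way. Of 23 heat shock proteins 15 were higher and 4 lower (median 0.40), and 16 were higher than their neighbours. HSPA1B (ENSG00000204388, chromosome 6, 31827735 to 31830255), an inducible HSP70, was at 174, 213 and 161 CPM in parental replicates 1, 2 and 3 and 755, 780 and 750 CPM in clone 37 (log2 fold change 2.06, SE 0.09, adjusted p 1.29e-11). Its coding sequence is nearly identical to that of HSPA1A, so the part of each copy is uncertain in counts of uniquely mapped reads. DNAJB1, the HSP40 that works with it, and BAG3, a co-chaperone that leads clients to autophagy, had log2 fold changes of 0.95 and 0.83. HSF1, the factor that drives these genes, was 0.26, and its difference from its neighbours was not called (0.13, adjusted p 0.0834). HSPB1, the small heat shock protein HSP27, was lower (-0.90).

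Promoters with the heat shock element did not all go with higher RNA. The 3 genes that follow were chosen for their printed promoters. HSPA8, the constitutive HSP70, was at 840, 942 and 867 CPM in parental replicates 1, 2 and 3 and 1430, 1290 and 1420 CPM in clone 37 (log2 fold change 0.64, SE 0.08, adjusted p 1.49e-06). CHORDC1, an HSP90 co-chaperone, was at 122, 122 and 127 CPM against 204, 208 and 213 CPM (log2 fold change 0.75, SE 0.06, adjusted p 4.19e-09). DNAJB6, a chaperone known to hold back aggregation of polyglutamine, was at 106, 105 and 112 CPM against 66.2, 62.7 and 59.7 CPM and thus lower in clone 37 (log2 fold change -0.78, SE 0.06, adjusted p 1.21e-08). It lies on distal chromosome 7, where neighbours had a median of -0.91, and it did not differ from them by the test (difference 0.13, adjusted p 0.0923).

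Of the other protein quality lists, 2 leaned higher, with no gene called at least 2-fold higher in either. In the CCT chaperonin and prefoldin list, which folds actin and tubulin, 8 of 14 genes were higher and 1 lower, led by CCT2 (0.64) and TCP1 (0.53). Of 32 proteasome genes 17 were higher and 1 was lower, at a median of 0.18. Against their neighbours 22 were higher and 1 lower. PSMD7 (0.90) belongs to the regulatory particle and PSMB7 (0.64) is a catalytic subunit. PSMD7 lies in the higher stretch of chromosome 16 and was 0.57 above its neighbours. Lysosome genes leaned lower, with 7 higher and 14 lower of 36, and the autophagy core was divided, with 7 higher and 8 lower of 28.

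Most genes on the list for making ribosomes rose. Of 34 genes of ribosome biogenesis and RNA polymerase I 25 were higher and 2 lower (median 0.46), and against their neighbours 31 were higher and 0 lower. By edgeR's test NOP16 (ENSG00000048162, chromosome 5, 176383938 to 176388975), a nucleolar protein of the large subunit path, rose most. It was at 20.5, 20.7 and 18.4 CPM in parental replicates 1, 2 and 3 and 53.8, 54 and 56.5 CPM in clone 37 (log2 fold change 1.46, SE 0.08, adjusted p 7.33e-11), more than 2-fold apart in every library. MYBBP1A, a nucleolar regulator of RNA polymerase I, was at 169, 169 and 183 CPM against 364, 361 and 360 CPM (log2 fold change 1.06). RRP12, an export factor of ribosomal subunits, was 1.00.

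Genes that host small nucleolar RNAs in their introns rose as well, 19 of 27 with 0 lower (median 0.70). DANCR (1.28), ZFAS1 (1.11) and SNHG8 (1.04) led them. Of 68 annotated snoRNAs that passed the count filter 25 were higher and 0 lower, at a median of 0.59 (0.42 without parental replicate 2). Most of the higher hosts, 18 of 19, lay among neighbours above 0, and 20 of 27 were higher than their neighbours.

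Mitochondrial ribosomal proteins were higher in 40 of 76 cases and lower in 6 (median 0.25). Of the 40, 37 lay among neighbours above 0, and 36 of 76 were higher than their neighbours. MRPL38 (0.78), MRPL36 (0.76) and MRPL20 (0.75) rose most, and MRPS33 (-0.97), on distal chromosome 7, fell most (difference from neighbours -0.01, adjusted p 0.956).

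Of 83 genes for proteins of the cytosolic ribosome 17 were higher and 20 lower (median 0.04). Parental replicate 2 decided the first count: without it 40 were higher and 21 lower (median 0.09), against 28.2% and 31.2% of all genes. With all libraries, 5 were higher and 16 lower than their neighbours (median -0.06). In that library the list's centred log2 level was 0.15, against -0.06 and -0.13 in the other parental libraries. RPL22L1, a paralogue of RPL22, had the largest decrease (-1.75), and RPL10 was -0.82. Ribosomal proteins have many processed copies, so their unique counts are uncertain.

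Most glucose and oxygen response genes were lower. Of 20 hypoxia response genes 16 were lower and 0 higher (median -0.58), and 16 and 1 without parental replicate 2. Of the 16, 8 lay among neighbours at or above 0, and 14 of 20 were lower than their neighbours. BHLHE40, a clock and hypoxia repressor, PDK1, a kinase that inhibits pyruvate dehydrogenase, and LOX, which cross-links collagen, had log2 fold changes of -1.83, -1.37 and -1.42. PDK1 lies in a lower block of chromosome 2, whose median was -0.535. HIF1A, the oxygen-regulated factor itself, changed by -0.21 and was higher than its neighbours on chromosome 14 (0.16, adjusted p 0.0443). Its call was lost without clone 37 replicate 2 (-0.16) and with GC and length trends removed (-0.14).

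Of 22 genes of glycolysis and lactate handling 14 were lower and 2 higher (median -0.23). SLC2A3 (ENSG00000059804, chromosome 12, 7919230 to 7936275), the glucose carrier GLUT3, was at 47, 41.9 and 29.5 CPM in parental replicates 1, 2 and 3 and 1.91, 2 and 1.7 CPM in clone 37 (log2 fold change -4.39, SE 0.22, adjusted p 4.68e-08). Every parental library was more than 10 times the highest clone 37 library. ALDOC, an aldolase, and HK2, the inducible hexokinase, had log2 fold changes of -1.73 and -1.13. ALDOA (0.35) and ENO1 (0.31), an aldolase and enolase of most cells, were the higher ones. Both calls were lost without parental replicate 3 (0.29 and 0.20). That of ALDOA was also lost without clone 37 replicate 1 (0.32) and by DESeq2 (0.34), and that of ENO1 with unstranded counts (0.27). Neither differed from its neighbours by the test (difference 0.03, adjusted p 0.848, and -0.05, adjusted p 0.671). ALDOA was counted at a mean of only 12.6 CPM in parental cells, below ALDOC at 18.5 CPM. Whether all of its reads were assigned to it was not tested.

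Lipid genes fell in part. Of 26 genes of cholesterol synthesis and SREBP control 14 were lower and 4 higher (median -0.20). INSIG1, which retains SREBP in the ER, had a log2 fold change of -1.55, though it lies in the lower stretch of chromosome 7 (neighbour median -0.91). SREBF2, the regulator of the pathway, was -0.92, and HMGCS1, an early enzyme, -0.87. In fatty acid synthesis 11 of 21 were lower and 6 higher, and 11 in all were called without clone 37 replicate 3. SCD, which desaturates fatty acids, fell (-0.74), and FASN, which makes them, rose (0.51).

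Counts of respiratory chain genes depended on parental replicate 2. Of 38 nuclear subunits of complex I 10 were higher and 12 lower, and 17 and 12 without that library. Of 38 subunits of complexes II to V 12 were higher and 5 lower, and 22 and 5 without it, against 28.2% and 31.2% of all genes. Against their neighbours, with all libraries, 7 and 6 subunits of complex I and 5 and 6 of complexes II to V were higher and lower. TCA cycle enzymes were lower in 13 of 22 cases and higher in 5, and 13 and 9 without parental replicate 2. Of the 13, 12 lay among neighbours below 0. Relative to their neighbours 6 were lower and 4 higher. Of 15 genes encoded in mitochondrial DNA 6 were higher and 0 lower, and 9 and 2 without parental replicate 2. MT-ND6, on the light strand, was at 128, 59.7 and 115 CPM in parental replicates 1, 2 and 3 and 292, 357 and 398 CPM in clone 37 (log2 fold change 1.80, SE 0.33, adjusted p 0.00918). Parental replicate 2 was the lowest of the 6 libraries for it.

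Genes of the extracellular matrix were lower across most of its parts. Of 29 tested collagens 17 were lower and 2 higher (median -0.38), of 23 laminins and basement membrane genes 17 and 2 (-0.50), of 27 matrix glycoproteins 16 and 4 (-0.50), and of 25 proteoglycan and hyaluronan genes 16 and 4 (-0.74). In each of the 4 lists 16 to 18 genes were lower than their chromosome neighbours. The fibroblast markers given above fell with these lists and share collagen genes with them, and their part in the result was not tested.

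FN1 (ENSG00000115414, chromosome 2, 215360440 to 215436172), fibronectin, was at 215, 218 and 197 CPM in parental replicates 1, 2 and 3 and 51.8, 45.7 and 45.5 CPM in clone 37 (log2 fold change -2.14, SE 0.07, adjusted p 9.74e-14), with no overlap. COL4A5 (ENSG00000188153, chromosome X, 108439844 to 108697545), a basement membrane collagen chain, was at 140, 128 and 143 CPM against 43.2, 46.3 and 46.1 CPM (log2 fold change -1.60). Its neighbour in the genome COL4A6, which shares its promoter region, was -1.74. LAMA4, a laminin chain, and VCAN, the proteoglycan versican, had log2 fold changes of -1.78 and -1.62. EFEMP1, a fibulin, and GPC6, a glypican, were -2.97 and -1.89, beside neighbours at -0.41 on chromosome 2 and -0.47 on chromosome 13. MMP2, a gelatinase, fell (-1.06), and the membrane protease MMP17 rose (1.32). The matrix protease list as a whole was 8 higher and 14 lower of 34.

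**Figure D3:**
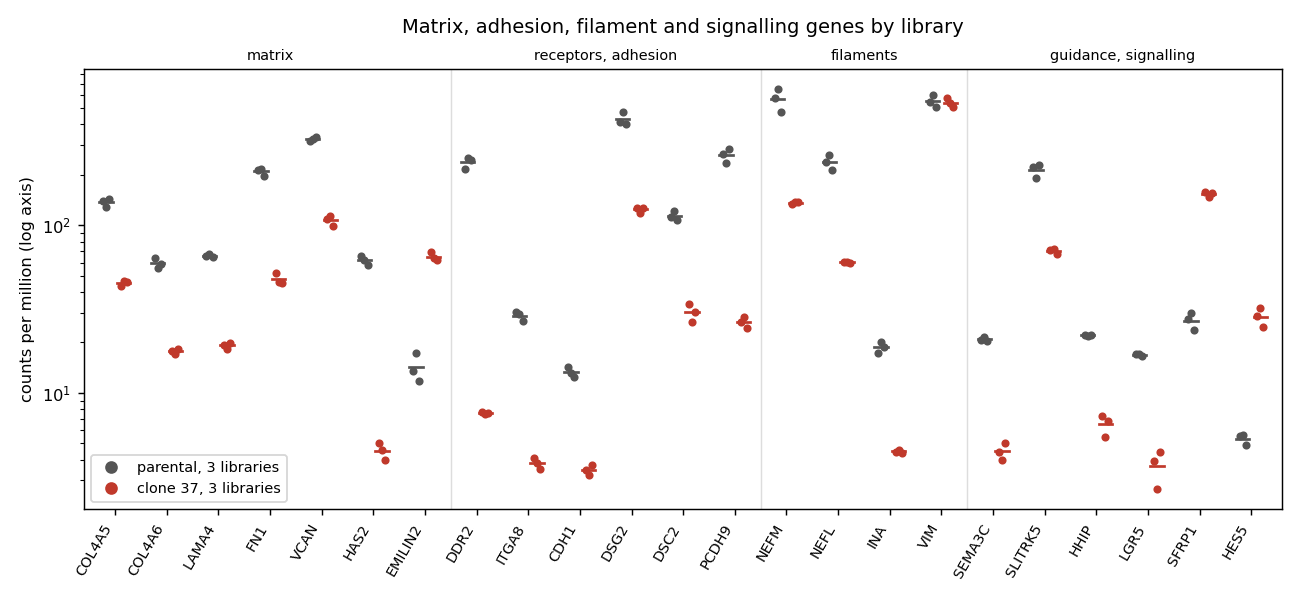
Level in each library, in CPM on a log axis, of matrix, adhesion, neurofilament and signalling genes in parental cells and clone 37. Each point is 1 library and each bar the mean of 3. FN1, COL4A5 and NEFM lie lower in all 3 clone 37 libraries, and SFRP1 lies higher.

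Receptors and adhesion molecules fell with the matrix. Of 28 integrins and collagen receptors 16 were lower and 2 higher, with ITGA8, an integrin of kidney development, at a log2 fold change of -2.93. Of 29 cadherins and their partners 16 were lower and 4 higher. CDH1, E-cadherin, was -1.93 and is also 1 of the 7 epithelial markers given above. DSC2 (-1.92) and DSG2 (-1.79), desmosomal cadherins, and CDH2 (-0.92), N-cadherin, all lie in the lower stretch of chromosome 18, where DSC2 had neighbours at a median of -0.73. The block of about 50 genes that holds all of them had a median of -1.237. CDH2 did not differ from its neighbours by the test (difference -0.155, adjusted p 0.0772). PCDH9, a protocadherin of neural tissue, was -3.31, and it lies in a lower stretch of chromosome 13 (neighbour median -0.43, difference -2.89). Of 18 immunoglobulin-type neural adhesion molecules 12 were lower and 1 was higher, and against neighbours 9 and 1.

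Genes known from neurons were lower in some families and divided in others. Of 15 intermediate filament genes 6 were lower and 3 higher, and 6 and 5 without parental replicate 2. NEFM (ENSG00000104722, chromosome 8, 24913012 to 24919098), the medium neurofilament, was at 573, 649 and 476 CPM in parental replicates 1, 2 and 3 and 135, 137 and 138 CPM in clone 37 (log2 fold change -2.05, SE 0.10, adjusted p 1.65e-09). NEFL, the light neurofilament, was -1.98 and INA, alpha-internexin, -2.08. VIM, the intermediate filament of mesenchymal cells, was not called (log2 fold change -0.03, adjusted p 0.736). Of 44 axon guidance genes, a list of semaphorins, plexins, neuropilins, slits, netrin receptors and the SLITRK and FLRT families, 29 were lower and 3 higher (median -0.45), and 29 and 5 without parental replicate 2, with SEMA3C at -2.21, FLRT3 at -1.90 and SLITRK5 at -1.61 beside chromosome 13 neighbours at -0.46. Of 46 sodium and calcium channel genes 20 were lower and 8 higher, led by SCN9A (-2.25) and CACNA1D (-2.02). Of 67 synaptic vesicle and SNARE genes 25 were lower and 9 higher. Potassium channels were divided, with 16 lower and 10 higher of 44. Of 30 receptors for glutamate, GABA, glycine and acetylcholine 9 were higher, 7 of them at least 2-fold, and 7 lower, 4 of them at least 2-fold (median 0.22). Against their neighbours 8 were higher and 6 lower (median 0.04).

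Signalling pathways differed in how one-sided they were. Of 21 ephrins and Eph receptors, which signal between touching cells, 11 were lower and 3 higher (median -0.21). In the Hedgehog list 12 of 18 genes were lower and 3 higher, including the inhibitor HHIP (-1.76) and the secreted cofactor SCUBE3 (-2.16). Among Wnt ligands, receptors and inhibitors 11 were higher and 11 lower of 35. SFRP1 (ENSG00000104332, chromosome 8, 41261958 to 41309497), a secreted Wnt inhibitor, was at 27.5, 29.9 and 23.6 CPM in parental replicates 1, 2 and 3 and 159, 147 and 155 CPM in clone 37 (log2 fold change 2.51, SE 0.08, adjusted p 6.89e-14). LGR5, the R-spondin receptor, and WNT5A, a ligand, fell (-2.18 and -1.21). In the Notch list 11 were higher and 8 lower of 27, and against their neighbours 5 and 6. NOTCH1 rose by 0.43 on the log2 scale and the coactivator MAML2 fell by 1.51. TGF-beta and BMP response genes were higher in 10 of 18 cases and lower in 6. The BMP target ID1 rose (0.72) and its relative ID2 fell (-0.82).

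Regulators of the ERK pathway and of growth factor signalling also went both ways. DUSP1, a phosphatase that switches off MAP kinases, was 1.49, and SPRY2, an inhibitor of receptor tyrosine kinases, was -1.17 beside chromosome 13 neighbours at -0.46. The immediate early factor EGR1 was lower (-0.92). Of 37 growth factors and receptors of the FGF, ERBB, PDGF, VEGF, KIT, MET and insulin families 11 were higher and 14 lower, with EGFR at -0.91 and VEGFC at 1.09. With GC and length trends removed 12 of this list were higher and 9 lower.

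Cell cycle genes divided between the directions. Of 39 genes of DNA replication 12 were higher and 9 lower, and against their neighbours 5 and 9. Of 36 genes of mitosis 13 were higher and 8 lower (median 0.06), and against their neighbours 4 and 10 (-0.06). MKI67, a marker of cycling cells, changed by 0.27, a call lost without clone 37 replicate 3 (0.24). Without clone 37 replicates 1 and 3 in turn, 12 and 13 mitosis genes were called in place of 21. MCM5, a subunit of the replicative helicase, was lower (-0.96). D cyclins parted: CCND1 was 0.81 and CCND2 -1.18. MYC rose by 0.45 on the log2 scale. Of 25 p53 targets 6 were higher and 10 lower, and CDKN1A (-0.03) and MDM2 (0.04), classical targets of p53, were not called (adjusted p 0.819 and 0.549), though MDM2 was called with GC and length trends removed (0.21).

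Replication-dependent histone genes, whose mRNAs mostly lack a poly(A) tail and are kept by ribosomal RNA depletion, were lower in 39 of 44 cases and higher in 3 (median -0.49). Of the 39, 30 lay among neighbours at or above 0, and 37 genes were lower than their neighbours. The list's centred log2 level was 0.09, 0.42 and 0.24 in the parental libraries and -0.22, -0.25 and -0.28 in clone 37. Parental replicate 2 was the highest, and without it the counts were also 39 and 3. H2AC8 (-1.65) and H2AC15 (-1.09) fell most, and H3C6 (0.50) rose. Histone genes are near-identical copies, so single members are uncertain.

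DNA repair genes went both ways. The list of mismatch and base excision repair held 9 higher and 8 lower of 24, and 3 and 6 against neighbours, and MLH3, a mismatch repair protein, was higher (0.89). Homologous recombination and Fanconi genes were 7 higher and 13 lower of 30, of which 10 of the lower genes lay among neighbours below 0. With GC and length trends removed 12 of them were higher and 11 lower.

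RNA sensors and interferon-stimulated genes gave no single direction. Of 14 sensors of double-stranded RNA and ZAP genes 3 were higher and 7 lower, and against their neighbours 7 and 5. With GC and length trends removed 6 of the 14 were higher and 7 lower. ZC3HAV1 (ZAP), an antiviral protein that binds CpG-rich RNA, was at 132, 149 and 149 CPM in parental replicates 1, 2 and 3 and 96.1, 92.9 and 100 CPM in clone 37 (log2 fold change -0.57, SE 0.06, adjusted p 5.95e-07). It lies on distal chromosome 7, and relative to its neighbours it was higher (0.34, adjusted p 0.000293). EIF2AK2 (PKR), a kinase of eIF2 that binds double-stranded RNA, was not called (log2 fold change 0.02, adjusted p 0.829), but it was higher than its neighbours on chromosome 2 (difference 0.39, adjusted p 3.41e-05). Removal of GC and length trends gave a call (0.17). OAS3, which starts RNase L activation, was higher (1.17). Of 19 interferon-stimulated genes 8 were higher, led by SAMD9 (2.17), and 4 lower, led by IFIT1 (-0.85). The class I gene HLA-B was lower (-0.61), and NLRC5, the transactivator of class I genes, was higher (1.36).

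Differences also followed chromosome position. Tested genes were put in order along each chromosome and divided into 327 blocks of about 50 genes, and the mean log2 level of each block was compared between lines with limma. By that test 257 blocks were called (78.6%), 137 higher and 120 lower. Most shifts were small: the quartiles of the block medians were -0.21 and 0.20 on the log2 scale. In 13 blocks the median reached 0.5 in either direction, 10 lower and 3 higher. These 13 held 660 genes, 4% of those tested, and 527 of the called genes (5.92%).

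The most shifted block lay on chromosome 18 (GRCh38, 27950966 to 46920160, from CDH2 to PIAS2). Its median log2 fold change was -1.24 and 39 of its 50 genes were lower. Its mean log2 CPM was 5.02, 5.01 and 5.06 in the parental libraries and 3.93, 3.88 and 3.87 in clone 37, so that the 2 lines were far apart and replicates close together. The distal long arm of chromosome 7 followed as a run of 3 blocks (130018286 to 158956747), at medians of -0.99, -0.92 and -0.91, with 43 of 50, 43 of 50 and 51 of 55 genes lower. ZC3HAV1, INSIG1, EZH2 and DNAJB6 lie in it. EZH2, the Polycomb methyltransferase, fell by 0.80 on the log2 scale and did not differ from its neighbours by the test (difference 0.15, adjusted p 0.0608).

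The end of chromosome 16 was higher as a run of 3 blocks (72665170 to 90178344), at medians of 0.61, 0.62 and 0.78. Without parental replicate 2 these were 0.46, 0.51 and 0.67. Chromosome 16 as a whole had 51.2% of genes higher and 5.96% lower, and 0 of its 16 blocks had a median below 0. Blocks at -0.50 or lower also lay on chromosomes 2, 3, 9, 13 and X and beside the first on chromosome 18. On chromosome 13 adjoining blocks (49912706 to 102876001) had medians of -0.515 and -0.403 and first quartiles of -1.299 and -1.446. Many of their genes thus fell further than the neighbour medians given for that chromosome.

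Whole chromosomes were shifted more weakly and evenly. On chromosome 2 the median was -0.38, 62.4% of genes were lower and all 21 blocks were below 0. On chromosome 14 it was -0.39, with 63.3% of genes lower and all 10 blocks below 0. On chromosome 22 all 8 blocks were below 0 (median -0.19). Chromosome 20 was higher (median 0.23), with 0 of its 8 blocks below 0. Other chromosomes held stretches in both directions. On chromosome 1 the first blocks lay above 0, as high as 0.37, and most later ones below, 21 of 33 in all and as low as -0.33. On chromosome 19, 8 of 22 blocks lay below 0, as low as -0.41, with the highest at 0.39. The number of DNA copies was not measured, so a change of dose and a change of transcription cannot be told apart here.

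**Figure D4:**
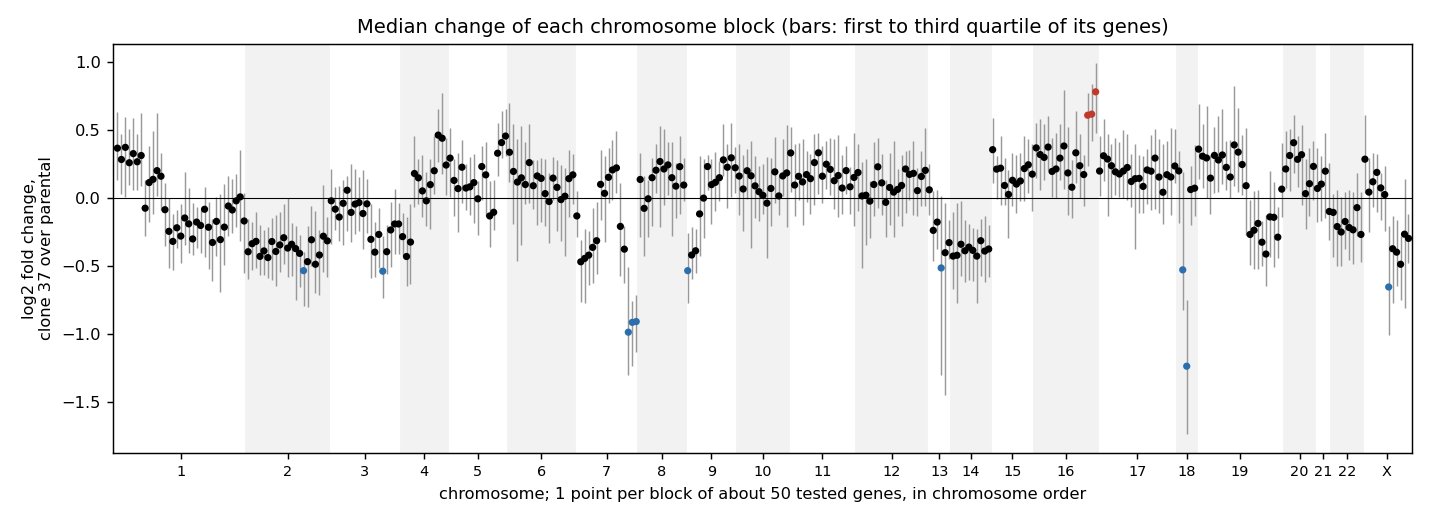
Median log2 fold change (clone 37 minus parental) of each block of about 50 tested genes, in chromosome order. Each point is 1 block, with a bar from the first to the third quartile of its genes, and blocks at 0.5 or beyond are coloured. Runs of low blocks lie on chromosomes 7 and 18, every block of chromosomes 2 and 14 lies below 0, and the last 3 blocks of chromosome 16 lie at 0.61 to 0.78.

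Such shifts were a small part of the spread across genes. The SD of the log2 fold change was 0.73 over all genes, 0.26 for the neighbour medians and 0.67 once these were subtracted. Of 8855 called genes with enough neighbours, 5290 were also called in the same direction against them, 3419 were not, and 146 were called in the opposite direction. A further 1604 were called against their neighbours alone. Of the 1485 genes changed at least 2-fold (9%), 190 lay in the 13 most shifted blocks.

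The gene lists divided by how far they followed position. For ATF4 targets, hypoxia genes, ribosome biogenesis, histones and axon guidance the list median differed from 0 by a like size after the neighbour medians were subtracted: -1.06, -0.61, 0.44, -0.58 and -0.32. For the TCA cycle it went from -0.26 to -0.03, and for NRF2 antioxidant targets, 12 higher and 6 lower of 23, from 0.20 to 0.01.

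**Figure D5:**
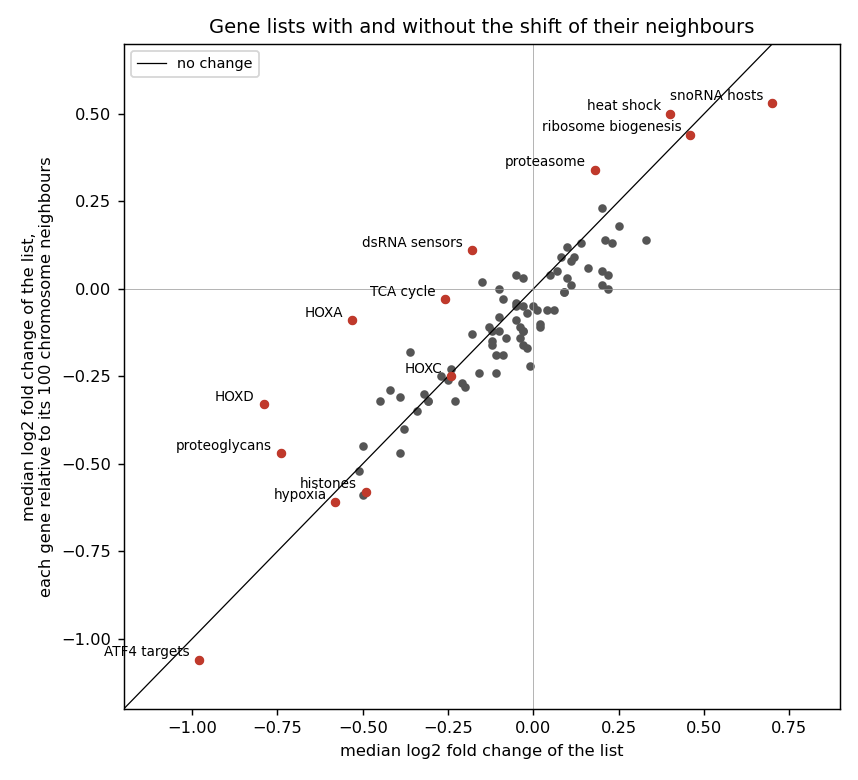
Median log2 fold change of each gene list (horizontal axis) against the median of the same genes after subtraction of their neighbours' median (vertical axis). Each point is 1 list. Points near the diagonal, among them the ATF4 list at -0.98 and -1.06, moved apart from their neighbours, and the HOXA, HOXD and TCA cycle lists lie nearer to 0 on the vertical axis.

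HOX genes, which set position along the body axis and lie in 4 clusters, differed by cluster in how far they followed position. Of 11 HOXA genes 7 were lower and 0 higher (median -0.53), but 2 were lower and 3 higher than their neighbours (median -0.09). HOXD genes lie in a shifted block of chromosome 2 and were lower in 6 of 8 cases (-0.79, and -0.33 against neighbours). Only 1 of these 8 was called lower than its neighbours, and 0 were higher. HOXC genes were lower in 4 of 9 cases with neighbours above 0 (-0.24, and -0.25 against neighbours), and HOXB genes were higher in 4 of 9 and lower in 0 (0.20, and 0.09 without parental replicate 2), but 0 were higher and 1 was lower than their neighbours (0.05). HOXA13, the gene at the distal end of its cluster, fell by 1.52 on the log2 scale and by 1.08 against its neighbours. Genes next to each other in a cluster share those neighbours.

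KRAB-type zinc finger genes, repressors that bind transposons and lie in clusters on chromosome 19, were higher in 73 of 207 cases and lower in 36 (median 0.14), and in 69 and 43 without parental replicate 2 (median 0.08). Single members moved far more than the family: 20 rose and 7 fell at least 2-fold, and ZNF492 (2.30), ZNF737 (2.11) and ZNF813 (2.00) rose most. Among zinc finger genes on other chromosomes 82 were higher and 55 lower. Related sequences in this family make unique counts uncertain. TRIM28, the corepressor that KRAB domains recruit, was -0.29. The DNA methyltransferase DNMT3A fell (-1.01) and DNMT3B rose (0.54). Of 31 Polycomb genes 13 were lower and 6 higher, and 4 and 10 were higher and lower against neighbours.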

How the data were processed

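Total RNA of the 3 clone 37 and 3 parental libraries was depleted of ribosomal RNA and made into directional libraries of 75 bp paired reads, per the labels' protocols. Raw counts per gene were deposited, in the layout of STAR's gene counts, which the authors made from uniquely mapped reads. STAR 2.7.10a, FastQC 0.11.9 and the build hg38 are named in the submitters' processing notes, and the annotation release is not given in the sources used here. Column 4, the transcript strand, held 92.8% to 94.0% of stranded gene counts. The 4 summary entries were left out, of which reads without a feature were 19.2% to 29.9% of pairs.

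Genes passing filterByExpr (16501) were given TMM factors, and edgeR 4.0.16 (robust quasi-likelihood, R 4.3.3) compared the lines, with Benjamini-Hochberg adjustment over all of them and a threshold of 0.05. SE is the fitted log2 fold change over the square root of F. Positions and gene types came from GENCODE 29 on GRCh38. For the neighbour test, the median log2 fold change of 50 genes on each side was entered as an offset. Blocks of 50 genes were compared with limma 3.58.1 on mean log2 CPM (prior count 2). Named genes were, per list, up to 3 called higher and 3 called lower with the largest change, a mean of at least 5 CPM and no overlap, all genes of lists of at most 8, fixed central genes, and the most expressed genes of shifted blocks. A few genes that this rule names are not reported here. The test was checked on simulated counts, where it recovered most changed genes and the share of false calls was slightly above the threshold. The simulation gave every gene the same variation between replicates, changed few genes and blocks, and held no library that stood apart. It therefore does not give the share of false calls in these data. The members and the 92 gene lists were chosen with earlier results of these data known. Alternatives included DESeq2 1.42.0, other scalings and filters, unstranded counts, all 9 libraries, a replicate block, protein-coding genes alone and each library left out. Removal of GC and length trends (mgcv 1.9.3) was added after seeing the data. Tables and plots were made in Python 3.11.15 with numpy 2.4.6, pandas 2.3.3 and matplotlib 3.10.9.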

Additional observations from a re-analysis of the deposited data

How the results depend on the processing

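The count of called genes, 8903, ranged from 7040 (each gene against its 100 neighbours) to 8949 (no filter on low counts) over the settings other than leaving out a library, and from 7487 to 10027 when each library was left out. Counts of genes changed at least 2-fold ranged from 1056 with protein-coding genes alone to 2151 with no filter. Depth limits the low genes, which enter the second of these counts and not the reported 1485. The replicate numbers did not pair the libraries, with correlations of -0.19 to -0.06 between same-numbered libraries, and a fit with the replicate block called 8375 genes, 1482 of them changed at least 2-fold, 6377 against neighbours and 78.9% of blocks. Of 76 lists with at least 10 called genes, the number called stayed within 1.5 times the reported one for 63, 64 and 66 lists against 100, 50 and 200 neighbours, and for all 76 with RLE size factors.

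Lists whose number of called genes moved further were these, with values against 100, 50 and 200 neighbours. Cytosolic ribosomal proteins went from 37 to 21, 21 and 21, complex I from 22 to 13, 14 and 11, complexes II to V from 17 to 11, 11 and 11, NRF2 targets from 18 to 10, 10 and 11, glycosphingolipid enzymes from 14 to 7, 8 and 6, and homologous recombination from 20 to 11, 9 and 12. The core spliceosome went from 23 to 12, 13 and 13, repeat RNA-binding proteins from 14 to 7, 9 and 8, and the Notch list from 19 to 11, 10 and 11. Against 100 and 50 neighbours the TCA cycle went from 18 to 10 and 10, mismatch repair from 17 to 9 and 9, and TGF-beta response genes from 16 to 10 and 10. Fatty acid synthesis went from 17 to 11 against 100 neighbours, DNA replication from 21 to 11 against 200, and the actin list from 25 to 16 with unstranded counts. Leaving out each library gave 26 to 61 cytosolic ribosomal proteins (the highest without parental replicate 2), 12 to 27 genes of complexes II to V (the same library), 15 to 29 translation factors, 11 to 17 genes of fatty acid synthesis, 12 to 25 of mitosis and 16 to 28 of actin. In all these the cause was not tested.

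Among the called genes given in the text, not all those the rule names, signs reversed in the neighbour settings alone. Against 100, 50 and 200 neighbours DNAJB6 was 0.132, 0.129 and 0.057, ENO1 -0.049, -0.049 and -0.017, EZH2 0.149, 0.149 and 0.032, HIF1A 0.16, 0.20 and 0.18, MBNL1 0.24, 0.23 and 0.18 and ZC3HAV1 0.34, 0.48 and 0.23. MBNL2 was 0.011 against 100. ALDOA was -0.004, CDH2 0.15, MRPS33 0.085 and SPRY2 0.21 against 50. With GC and length trends removed, the calls of HSPA5, HIF1A, MBNL1 and SLC7A5 were lost, and EIF2AK2 and MDM2 were called. The call of ALDOA was lost by DESeq2 and that of ENO1 with unstranded counts.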

Other observations

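Other families held members with large and opposite changes. Among kidney development factors, 7 higher and 7 lower of 21, WT1 (1.11) and LHX1 (0.96) were higher and PAX2 was not called (log2 fold change -0.01, adjusted p 0.959). In the FOX and SOX families SOX21, a neural factor, was -2.26 beside chromosome 13 neighbours at -0.47, and FOXA1, a pioneer factor of endoderm, was 0.79. Among 77 tested G protein-coupled receptors 18 were higher and 27 lower, with the endothelin receptor EDNRB, also on chromosome 13 (neighbours at -0.44), at -2.79 and the chemokine receptor CXCR4 at -1.44. Phosphodiesterase PDE3A, which breaks down cAMP and cGMP, was -2.16, and PDE4A, which is specific for cAMP, was 1.22.

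Cytoskeletal lists leaned in different directions. Of 15 tubulins 6 were higher and 2 lower, and against their neighbours 4 and 5. Of 39 actin, myosin II and actin regulator genes 9 were higher and 16 lower. TMSB4X, which holds actin monomers, was -1.87, the tubulin TUBA4A -1.97 and the tubulin TUBA1C 0.66. Among RNA-binding proteins known to bind expanded repeats 7 of 17 were higher and 7 lower. MBNL1 (-0.21), MBNL2 (-0.47) and MBNL3 (-0.57), splicing factors sequestered by CUG repeats, were lower, but against their chromosome neighbours MBNL1 was 0.24, MBNL2 0.01 and MBNL3 -0.13. The call of MBNL1 was lost with GC and length trends removed (-0.088). RBFOX3, a neuronal splicing factor, was higher (1.14). Of 15 NF-kB and inflammatory genes 3 were higher and 7 lower. The imprinted gene MAGEL2 was higher (1.65) and GRB10, an imprinted inhibitor of insulin signalling, was lower (-1.32).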
